A study of Danio rerio with 72 samples.

Results

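Posterior presomitic mesoderm from zebrafish embryos carrying Tg(hsp701;dnfgfr1-EGFP), taken 30 min after the end of a heat shock, was set against the same tissue from wild-type AB embryos given the same heat shock and dissected at the same time. The arrays were chosen by their labels alone, 4 labelled Tg(hsp701;dnfgfr1-EGFP) and 4 labelled wild-type AB at 30 min, which made 8 of the 72 arrays in the series. Every embryo of this comparison was at the 12-somite stage, had been raised at 24 °C, was heated to 37 °C for 30 min and was then returned to 24 °C. The transgene is a dominant-negative Fgf receptor fused to EGFP behind a heat-shock promoter, so the arrays labelled dnfgfr1 below carry it and the wild-type arrays lack it. The same genotypes dissected after 1 h, with 4 arrays each, gave the later time point, and the means of the 16 groups other than these dnfgfr1 groups and the wild type of 30 min, among them the wild type of 1 h, gave reference levels. All 72 arrays entered the fit and set its variance. The labels call the 4 arrays of each group biological replicates and do not say how many embryos were pooled, whether carriers were sorted or from which clutches they came. At each time the transgenic line met wild type in a single comparison, so the action of the transgene and any standing difference between the line and AB cannot be told apart.

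Fgf ligands bind receptor tyrosine kinases, which pass the signal through adaptors and Ras to the MAP kinase cascade and from there to Ets-family transcription factors. A receptor that lacks its kinase part pairs with the intact receptors and silences them. In the presomitic mesoderm Fgf8 and Wnt signals are strongest at the tail end, hold cells in an immature state and fade towards the front, where Notch-driven oscillations stop and somite boundaries form. Sprouty and MAP kinase phosphatase genes are switched on by the pathway and hold it back, and they serve as its usual readouts.

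Values are log2 signals after normalisation, differences are dnfgfr1 minus wild type on that scale with their standard error (SE), and the adjusted p comes from limma with Benjamini-Hochberg adjustment over 10126 probe sets. A gene was called at an adjusted p under 0.05. A level of 4 is the bottom of the scale, where the array shows no signal, and folds of genes near it understate the change.

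The dissected tissue carried the markers of posterior presomitic mesoderm in both genotypes. The bHLH, T-box and homeobox regulators msgn1, tbx16 and cdx4 averaged 12.49, 11.47 and 12.02 in dnfgfr1 tissue and 12.54, 11.55 and 12.08 in wild type, and none of the 10 measured markers of this tissue was called. The summed signal of these 10 markers was nevertheless lower in every dnfgfr1 array, at 17160, 18031, 17712 and 18615, than in any wild-type array, at 19682, 20027, 18748 and 19954. Signal of other tissues was unequal. The 5 measured epidermal markers summed to 2706, 1180, 2181 and 1926 in dnfgfr1 arrays and to 1314, 1534, 191 and 202 in wild-type arrays, so that wild-type replicates 3 and 4 had little epidermal signal and replicates 1 and 2 lay within the dnfgfr1 range. In such dissected tissue fewer cells of a type and less RNA per cell cannot be told apart.

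The array also carries control probe sets, which were kept out of the tests, and 1 of them marked the dnfgfr1 arrays. Its deposited signal was 5520, 7589, 8980 and 6394 in dnfgfr1 arrays at 30 min against 32.9, 24.5, 33.7 and 50.7 in wild-type arrays, and 5811 to 7934 in dnfgfr1 arrays at 1 h. In none of the 64 arrays labelled otherwise did it exceed 64.4. Those arrays include other heat-shock lines whose labels name gfp, with DeltaTcF, wnt8a or dkk1. The tables used here give this control no gene name, so the transcript it detects was not identified. A control named for pd2EGFP read 4.81 to 21.1 in dnfgfr1 and 3.82 to 12.9 in wild-type arrays, which overlapped. Whether either control detects the EGFP of the transgene was not tested. The probe set of the endogenous receptor gene fgfr1a averaged 5.38 ± 0.39 in dnfgfr1 and 5.36 ± 0.17 in wild-type arrays (SD, n = 4 each), and the groups overlapped as well.

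At 30 min the genotypes differed at 304 of 10126 probe sets (3.0%), 167 higher (1.65%) and 137 lower (1.35%) in dnfgfr1 tissue. The rises were the larger, with a median log2 difference of 0.99 against -0.82 for the falls, and 81 rises and 43 falls exceeded 2-fold. 11 rises and 3 falls exceeded 4-fold. Over all tested probe sets the median difference was -0.02. In 147 of the rises every dnfgfr1 array lay above every wild-type array, and in 131 of the falls every dnfgfr1 array lay below, which made 278 calls with no overlap (2.75% of the probe sets tested). Over all tested probe sets, called or not, the genotypes did not overlap at 1236 (12.2%), with dnfgfr1 above at 549 (5.42%) and below at 687 (6.78%). A single symbol was attached to 214 of the called probe sets, and the 195 with an informative symbol stood for 184 genes. The remaining 90 had no symbol or several and are not named. Of 61 called genes with several probe sets tested, all probe sets had the same sign in 37 and all were called in 6.

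**Figure D1:**
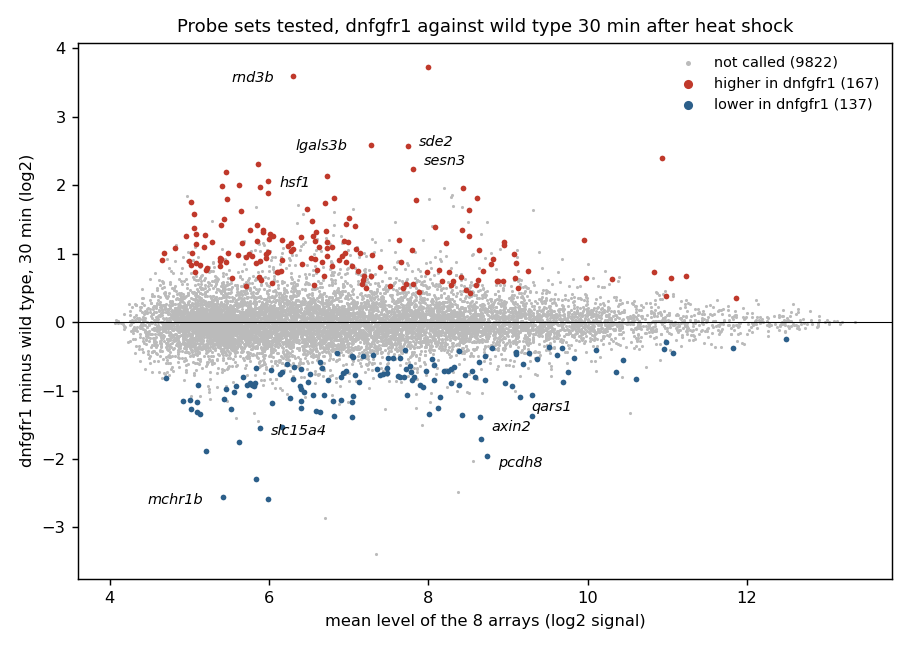
Log2 difference of dnfgfr1 against wild type at 30 min (vertical axis) plotted against the mean log2 level of each of 10126 tested probe sets (horizontal axis). The 167 higher and 137 lower calls are coloured, and a selection of the named genes is labelled. The labelled rises reach 3.59 for rnd3b and the labelled falls -2.55 for mchr1b, while the cloud of all probe sets is centred near 0.

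No gene of the Fgf pathway was called at 30 min. None of the 5 ligands, 9 receptors and co-receptors, 15 transduction genes and 27 feedback and output genes that could be measured was called by limma, although 2, 1, 1 and 3 of them had an unadjusted p under 0.05. Across all tested probe sets 1452 had such a p. The median log2 differences of these groups were -0.50, 0.02, 0.01 and -0.11.

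Among the ligands fgf8a, the tail-end signal of this tissue, was at 4.95, 5.32, 4.81 and 5.47 in dnfgfr1 and at 6.93, 5.92, 6.81 and 6.64 in wild-type arrays. All 4 dnfgfr1 values lay below all wild-type values, yet the difference of -1.44 ± 0.54 did not pass (adjusted p = 0.158). fgf8a was called when the compared groups were fitted alone (adjusted p = 0.00684) and with array weights (0.031). Further ligands, fgf3, fgf24 and fgf10a, differed by -0.52, -0.50 and -0.41 without passing, and fgf13a, an intracellular Fgf-related protein, differed by 0.14. The receptors fgfr1a, fgfr2, fgfr3 and fgfr4 differed by 0.02, 0.08, 0.01 and 0.10, all within the spread of the arrays, and the decoy-like receptor fgfrl1a by less than any of them. Signs at such sizes turned when single arrays were left out. fgfbp1a, a carrier that frees Fgf from the matrix, had the largest difference of the receptor group at 0.80 ± 0.32 (adjusted p = 0.194).

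Downstream of the receptors, the adaptor grb2b, which links them to Ras, differed by -0.86 without passing (adjusted p = 0.306; 0.0456 with array weights), hrasb, a Ras itself, differed by -0.35, and rps6ka3a, a ribosomal S6 kinase under MAP kinase, by 0.50. The MAP kinase mapk3 and its activator map2k2a differed by -0.07 and -0.07.

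Of the 27 feedback and output genes measured, 12 lay above wild type, and their differences ran from -0.66 to 0.96. Of the pathway's readouts, the feedback inhibitor spry4 was at 10.74, 10.42, 10.14 and 10.33 in dnfgfr1 and at 10.71, 11.04, 11.51 and 11.01 in wild-type arrays. The ranges met only at their edges, where the highest dnfgfr1 array, replicate 1, stood just above the lowest wild-type array, also replicate 1. Its difference of -0.66 ± 0.28 did not pass (adjusted p = 0.22). The MAP kinase phosphatase dusp6 was at 11.35, 11.25, 11.13 and 11.14 against 11.49, 11.52, 11.44 and 11.43, every dnfgfr1 array below every wild-type array by a small margin, with a difference of -0.25 ± 0.19 (adjusted p = 0.633). The immediate early gene ier2a was at 11.78, 11.33, 11.52 and 11.36 against 11.71, 11.83, 12.03 and 11.84, with overlap through dnfgfr1 replicate 1, and differed by -0.36 ± 0.29 (adjusted p = 0.666). The Ets factors etv4 and etv5b differed by 0.02 and 0.22 without passing, etv5b with an adjusted p of 0.462. The growth regulator myca differed by -0.63 with separate arrays but did not pass (adjusted p = 0.193; 0.0394 with array weights), and cnpy1, which helps Fgf receptors mature, was 0.56 above wild type without passing. rasgef1ba, also among the 12 Fgf genes of smallest p, was 0.43 above wild type without passing (adjusted p = 0.468).

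**Figure D2:**
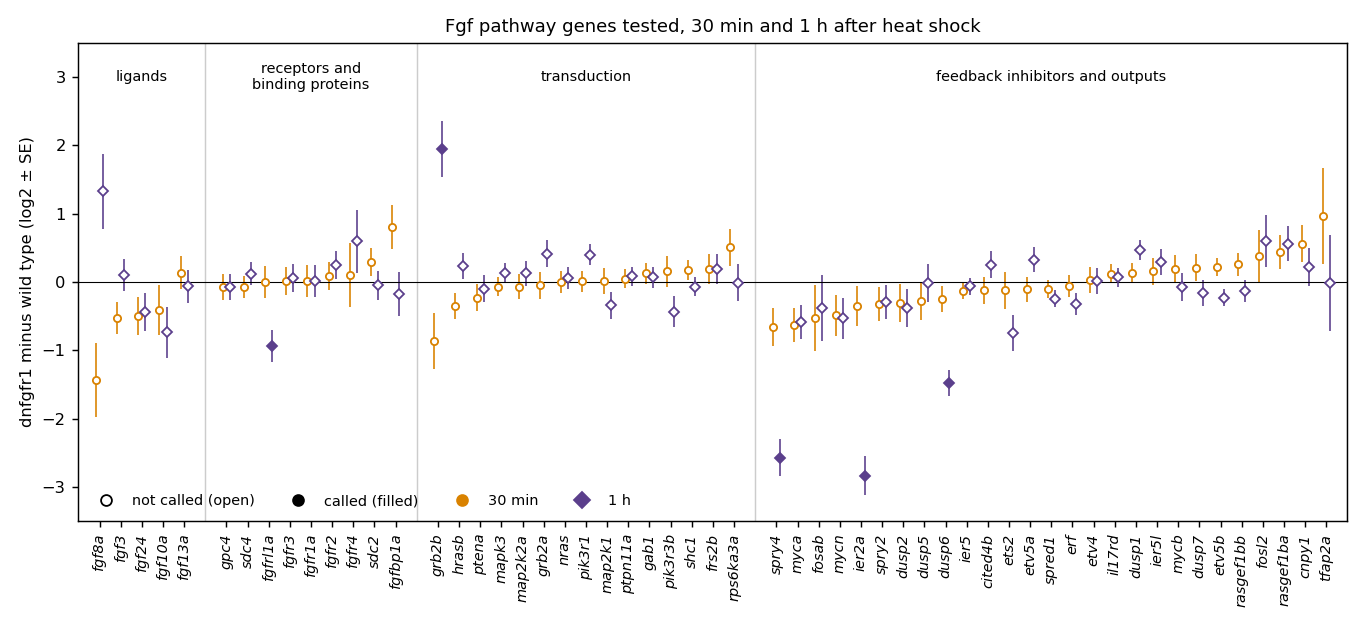
Log2 differences of dnfgfr1 against wild type for the Fgf pathway genes at 30 min and at 1 h, with bars of 1 SE. At 30 min no point passes the threshold, whereas at 1 h spry4, dusp6 and ier2a lie at -2.57, -1.49 and -2.83.

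The change of the genotype difference between 30 min and 1 h was tested in the same fit. At 1 h spry4 was at 9.21, 8.95, 7.88 and 7.78 in dnfgfr1 and at 10.82, 11.06, 11.11 and 11.12 in wild-type arrays, and the difference had moved by -1.91 ± 0.39 relative to 30 min (adjusted p = 0.00594, or 0.0533 when the 4 groups were fitted alone). For dusp6 the difference moved by -1.23 ± 0.27 (adjusted p = 0.0118, 0.312 with the 4 groups alone) and for ier2a by -2.48 ± 0.41 (adjusted p = 0.000401, 0.232 with the 4 groups alone). grb2b turned the other way and was 1.94 above wild type at 1 h, a move of 2.80 ± 0.58 (adjusted p = 0.00594, 0.153 with the 4 groups alone). The other grb2b probe set, at -0.40 at 30 min and 0.68 at 1 h, was called at neither time (adjusted p = 0.512 and 0.128). The other dusp6 probe set differed by -0.24 at 30 min and -0.61 at 1 h (adjusted p = 0.634 and 0.0416). The ligand fgf8a was at 8.37, 8.61, 9.51 and 8.13 in dnfgfr1 and 8.34, 6.32, 6.71 and 7.97 in wild-type arrays at 1 h, a difference of 1.32 that did not pass (adjusted p = 0.207). The move between times of 2.76 ± 0.77 did not pass either (adjusted p = 0.121). Of the receptor group, fgfrl1a was called lower at 1 h, and its move between times was not called.

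Wnt genes held a pair of falls among 33 measured members, 2 lower and none higher, with a median difference near 0 and 8 members at an unadjusted p under 0.05. Among all 10126 tested probe sets 1.35% were lower, and 1452 had such a p. axin2, a feedback inhibitor and direct target of Wnt signalling, was at 7.98, 8.27, 7.78 and 7.84 in dnfgfr1 and 10.02, 8.79, 9.01 and 9.57 in wild-type arrays. The groups did not overlap, wild-type replicate 1 being the highest, and axin2 fell 2.6-fold (-1.38 ± 0.27, adjusted p = 0.000723). At 1 h it was at 9.28, 8.86, 9.77 and 7.96 in dnfgfr1 and 9.72, 9.10, 9.09 and 8.96 in wild-type arrays, a difference of -0.25 (adjusted p = 0.764), and the move between times was not called (adjusted p = 0.257). wnt5b, the ligand that directs convergence and extension in the tail, was at 7.63, 7.73, 7.41 and 7.84 against 8.52, 8.22, 8.42 and 8.84, again without overlap, and fell (log2 difference -0.85 ± 0.22, adjusted p = 0.0189). Its call was lost without dnfgfr1 replicate 3 or without wild-type replicate 4, with adjusted p of 0.0832 to 0.101. The Wnt-responsive Sp factors sp5a and sp5l were -1.10 and -0.60 (adjusted p = 0.0896 and 0.247), and the secreted Dickkopf relative dkk3b -1.02 (adjusted p = 0.0582), so each lay below wild type without passing. lef1, the nuclear partner of beta-catenin, was 0.54 above wild type without passing.

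No gene of the Notch pathway and segmentation clock was called among 31 measured, 1 of which had an unadjusted p under 0.05. Only 7 of the 31 were above wild type and the median was -0.18, beside 4721 of 10126 above wild type and a median of -0.02 over all probe sets. The cyclic genes her1 and her7 and the ligand dlc were -0.95, -0.46 and -0.64, and none passed. Their SDs over the dnfgfr1 arrays were 0.841, 1.2 and 1.41, and the genotypes overlapped in each.

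Among 29 measured genes of paraxial mesoderm, somite boundaries and myogenesis 1 rose and 1 fell, with a median of -0.05. Over all tested probe sets 1.65% were higher and 1.35% lower. pcdh8, the paraxial protocadherin that governs adhesion and cell movement in unsegmented mesoderm, was at 7.11, 7.81, 9.07 and 7.03 in dnfgfr1 and 10.20, 9.38, 9.91 and 9.36 in wild-type arrays. dnfgfr1 replicate 3 stood apart from its group but still below all wild-type arrays, and pcdh8 fell 3.88-fold (-1.95 ± 0.42, adjusted p = 0.00319; 0.0612 with the compared groups fitted alone). At 1 h its difference was -1.06 and was not called (adjusted p = 0.183). epha4a, the Eph receptor of forming somite boundaries, was at 9.36, 9.19, 9.08 and 9.49 against 8.61, 8.0, 7.96 and 8.85 without overlap, and rose by 0.92 ± 0.25 (adjusted p = 0.0269). The call of epha4a was lost without any 1 of 4 arrays (dnfgfr1 replicates 1 and 4, wild-type replicates 2 and 3), with adjusted p of 0.0708 to 0.125, and with median centring (0.0641). Its other probe set at 0.62 did not pass (adjusted p = 0.204). The anterior segmentation factor mespaa, which fell at 1 h (-2.62), differed by -0.48 ± 0.29 at 30 min (adjusted p = 0.49), and the move between times was -2.14 ± 0.41 (adjusted p = 0.00283).

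Tail bud genes lay mostly below wild type without a single call. Of 22 measured, 4 were above wild type, the median was -0.25 and 2 had an unadjusted p under 0.05. Their summed signal was 8595, 7589, 8294 and 8926 in dnfgfr1 arrays and 11303, 9814, 9512 and 12541 in wild-type arrays, with no overlap. The T-box gene tbxta, which marks notochord and tail progenitors, averaged 8.16 against 9.19 and did not pass (adjusted p = 0.181), nor did sox2, a progenitor factor shared with neural tube, at -0.89 (adjusted p = 0.51). Of 39 Hox genes measured 1 fell, hoxa9b (log2 difference -0.50, adjusted p = 0.0492), a call that did not hold in 13 of 18 alternatives, among them leaving out any 1 array other than dnfgfr1 replicate 2, where the adjusted p was 0.0579 to 0.25. In all, 9 of the 39 were above wild type, with a median of -0.11, and 1.35% of all tested probe sets were called lower. None of 21 retinoic acid and 25 BMP, TGF-beta and Nodal genes was called by limma, with 0 and 2 at an unadjusted p under 0.05. id3, a BMP target, came nearest at -0.96 (adjusted p = 0.0797).

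hsf1, the master transcription factor of the heat shock response, was at 6.91, 7.07, 7.05 and 7.06 in dnfgfr1 and 4.81, 5.06, 5.15 and 4.83 in wild-type arrays. Spread within the groups was small beside the distance between them, and hsf1 rose 4.17-fold (2.06 ± 0.22, adjusted p = 2.76e-10). At 1 h the difference was 2.05 ± 0.22 (adjusted p = 3.37e-10), and the 16 other groups averaged between 4.32 and 5.79, all below dnfgfr1 tissue. Of 67 measured heat shock proteins and chaperones, hsf1 alone rose and fkbp4 alone fell, 30 were above wild type and the median was -0.01. Shares over all tested probe sets were 1.65% higher and 1.35% lower. hsp70.3, a heat-inducible chaperone of the family whose promoter drives the transgene, averaged 12.63 in dnfgfr1 and 12.49 in wild-type arrays, near the top of the scale in both. fkbp4, an Hsp90 co-chaperone, fell (log2 difference -0.39 ± 0.10, adjusted p = 0.0137), a call lost without dnfgfr1 replicate 1 or without wild-type replicate 4 (0.0665 to 0.0671), and stood at -0.35 at 1 h (adjusted p = 0.0298).

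Stress and survival genes gave a few more rises. sesn3, a sestrin induced by stress that restrains growth signalling through mTORC1, was at 8.24, 8.99, 8.62 and 9.90 in dnfgfr1 and 6.81, 7.36, 6.48 and 6.12 in wild-type arrays. Its lowest dnfgfr1 array was above its highest wild-type array, and it rose 4.73-fold (2.24 ± 0.49, adjusted p = 0.00328). prdx1, a peroxiredoxin that removes peroxides, was at 9.67, 9.57, 8.47 and 9.61 against 7.61, 7.21, 8.02 and 7.90, with dnfgfr1 replicate 3 below the others, and rose 3.13-fold (1.65 ± 0.29, adjusted p = 0.000122). Its 2 further probe sets also rose, by 1.16 and 0.92 (adjusted p = 0.00487 and 0.0192). birc2, an inhibitor of apoptosis, rose by 0.65 ± 0.19 (adjusted p = 0.0338) with overlapping arrays, a call lost without any 1 of 5 arrays, dnfgfr1 replicates 1, 2 and 4 and wild-type replicates 2 and 3 (adjusted p of 0.064 to 0.246), with median centring (0.101) and with the compared groups alone (0.16). Counted over lists, 2 of 28 measured p53 and cell death genes rose and none fell (median 0.19), and none of 52 immediate early, stress and cytokine genes was called by limma, with 7 at an unadjusted p under 0.05 (median 0.13). Among all 10126 tested probe sets 1.65% were higher, and 1452 had such a p. The cell cycle list had no call among 57 genes by limma, with 5 at an unadjusted p under 0.05 and a median of 0.02.

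The largest rise among the named genes was that of rnd3b, whose product lowers actomyosin tension. It was at 8.01, 8.31, 8.08 and 8.01 in dnfgfr1 and at 4.64, 4.44, 4.23 and 4.74 in wild-type arrays, close to the bottom of the scale in all 4 of the wild-type arrays. The rise was 12.1-fold (3.59 ± 0.64, adjusted p = 0.000215). High levels were not particular to this line, since the dkk1 and wnt8a groups of 1 h, from other transgenic lines, averaged 8.51 and 8.31. cdk5, a cyclin-dependent kinase that acts on the cytoskeleton of neurons, was at 6.94, 6.61, 6.45 and 6.23 against 4.30, 4.08, 4.67 and 4.42 and rose 4.56-fold (2.19 ± 0.34, adjusted p = 1.71e-05). Both genes were clear of overlap. At 1 h cdk5 was at 6.96, 5.99, 6.24 and 6.47 in dnfgfr1 and 6.40, 4.39, 6.23 and 6.34 in wild-type arrays, so that 3 of these wild-type arrays were near the dnfgfr1 level of 30 min. Of genes that work on the actin machinery, elmo2, a partner of the Dock activators of Rac, fell (log2 difference -1.16 ± 0.24, adjusted p = 0.00131), as did brk1, a subunit of the WAVE complex (-0.72 ± 0.12, adjusted p = 5.95e-05).

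**Figure D3:**
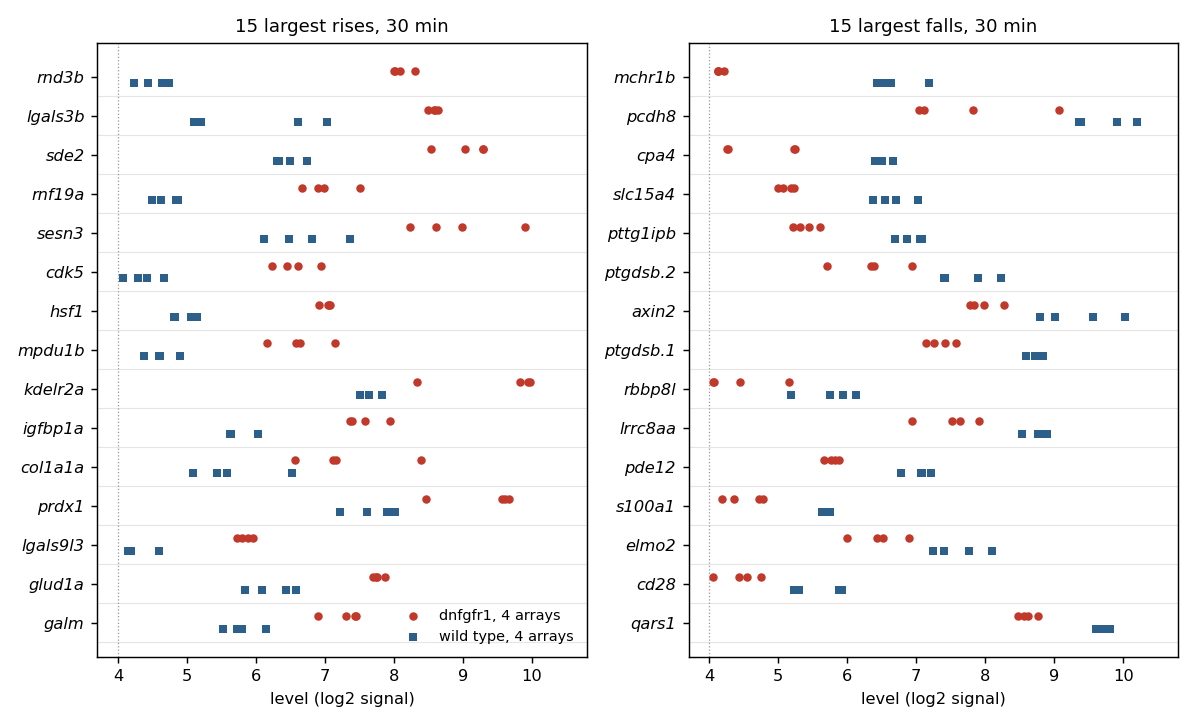
Log2 signal (horizontal axis) of the 15 largest rises and 15 largest falls among named genes on each of the 8 arrays at 30 min. In the row of each gene the dnfgfr1 points are drawn above the wild-type points. hsf1 and glud1a show tight groups, whereas lgals3b spans 7.03, 6.61, 5.20 and 5.10 over the wild-type arrays.

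Single genes of protein turnover and of the secretory pathway rose as well. rnf19a, a RING-type ubiquitin ligase, was at 7.51, 6.99, 6.67 and 6.89 in dnfgfr1 and 4.62, 4.87, 4.85 and 4.50 in wild-type arrays and rose 4.95-fold (2.31 ± 0.39, adjusted p = 8.14e-05). Its 2 other probe sets rose too, by 1.42 and 0.76 (adjusted p = 0.00131 and 0.0102). At 1 h rnf19a was at 6.98, 4.51, 6.77 and 7.22 in dnfgfr1 and 6.89, 6.86, 4.68 and 6.65 in wild-type arrays, and the genotypes overlapped (log2 difference 0.10, adjusted p = 0.964). mpdu1b, needed in mammals for the use of dolichol-linked mannose in glycosylation, was at 7.14, 6.57, 6.15 and 6.64 against 4.60, 4.90, 4.61 and 4.38 and rose 4.02-fold (2.01 ± 0.29, adjusted p = 3.51e-06). kdelr2a, a receptor that returns escaped proteins to the endoplasmic reticulum, was at 9.94, 9.83, 8.33 and 9.97 against 7.51, 7.83, 7.64 and 7.83 and rose by 1.82 ± 0.46 (adjusted p = 0.0137). In each of these genes every dnfgfr1 array was above every wild-type array at 30 min, with kdelr2a lowest in dnfgfr1 replicate 3. The kdelr2a call was lost without dnfgfr1 replicate 1 or 4, with adjusted p of 0.0596 to 0.0654, and its other probe set at 0.61 did not pass (adjusted p = 0.144).

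Rises also took in a metabolic enzyme and a growth factor binder. glud1a, mitochondrial glutamate dehydrogenase, was at 7.75, 7.87, 7.69 and 7.75 in dnfgfr1 and 6.08, 5.84, 6.44 and 6.59 in wild-type arrays, the dnfgfr1 arrays being nearly equal, and rose 2.88-fold (1.53 ± 0.19, adjusted p = 4.54e-08). igfbp1a, a binding protein that holds back insulin-like growth factors, was at 7.39, 7.95, 7.58 and 7.37 against 6.02, 5.64, 5.63 and 6.03 and rose 3.34-fold (1.74 ± 0.30, adjusted p = 0.000101). Neither gene had overlapping arrays, and the other igfbp1a probe set at 0.95 did not pass (adjusted p = 0.0625). galm, galactose mutarotase, rose by 1.48 ± 0.40 (adjusted p = 0.0223), a call lost without any 1 array other than replicate 3 of either genotype (0.053 to 0.0757) and with a pseudocount of 1 (0.0687).

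A pair of galectins and a pair of matrix genes rose, beside the unequal epidermal signal of the arrays. lgals3b, a galectin made by the embryonic epidermis, was at 8.64, 8.58, 8.60 and 8.50 in dnfgfr1 and 7.03, 6.61, 5.20 and 5.10 in wild-type arrays. It rose 6.04-fold (2.59 ± 0.48, adjusted p = 0.000423), and its lowest wild-type values were those of replicates 3 and 4, the arrays with summed epidermal markers of 191 and 202. lgals3b is itself among those summed markers, so the sums are not independent of it. lgals9l3, a galectin-9 relative, rose by 1.58 ± 0.37 (adjusted p = 0.0061). lgals3b was the only call among 32 measured epidermal genes, of which 25 were above wild type with a median of 0.33 and 5 had an unadjusted p under 0.05. Of all tested probe sets 1.65% were called higher. The keratins krt4 and krt8 were 1.96 and 1.47 above wild type without passing (adjusted p = 0.172 and 0.292). Of 26 matrix and integrin genes 2 rose, beside 1.65% of all tested probe sets, 21 were above wild type and the median was 0.32. mmp2, gelatinase A, was at 6.46, 6.50, 6.52 and 6.87 against 5.32, 5.45, 5.28 and 5.02 without overlap and rose 2.49-fold (1.32 ± 0.28, adjusted p = 0.00216), its other probe set by 1.02 (adjusted p = 0.0247). col1a1a, a chain of type I collagen, was at 8.39, 6.56, 7.16 and 7.12 against 6.52, 5.44, 5.58 and 5.08, where the lowest dnfgfr1 array only just cleared the highest wild-type array. Its rise of 1.66 ± 0.48 (adjusted p = 0.0393) was lost without any 1 of 6 arrays, all but dnfgfr1 replicate 2 and wild-type replicate 1, with adjusted p of 0.0696 to 0.208, and with a pseudocount of 1, no filter or the compared groups alone (0.0609 to 0.0774). Its other probe set at 1.04 did not pass (adjusted p = 0.0887). The part of the epidermal signal in these rises was not tested.

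Falls beyond the signalling genes included a hormone receptor, a transporter and enzymes. mchr1b, a receptor for melanin-concentrating hormone, was at 4.13, 4.22, 4.13 and 4.12 in dnfgfr1 arrays, the bottom of the scale, against 6.43, 6.55, 7.19 and 6.64 in wild type. It fell (log2 difference -2.55 ± 0.75, adjusted p = 0.0466), and the call was lost without any 1 of the 8 arrays (0.0764 to 0.121), with a pseudocount of 64 and with no filter (0.0676 and 0.071), although the groups stood far apart. slc15a4, a lysosomal transporter of histidine and small peptides, was at 5.22, 5.18, 5.0 and 5.07 against 7.03, 6.55, 6.37 and 6.70 and fell 2.91-fold (-1.54 ± 0.20, adjusted p = 1.41e-07). cpa4, a carboxypeptidase, was at 5.24, 5.23, 4.27 and 4.26 against 6.47, 6.66, 6.50 and 6.40 and fell 3.38-fold (-1.76 ± 0.36, adjusted p = 0.00139). All 3 had no overlap between the genotypes. ptgdsb.1 and ptgdsb.2 encode prostaglandin D synthases of the lipocalin type and are near relatives, so their probe sets could share RNA. ptgdsb.1 was at 7.42, 7.13, 7.58 and 7.26 against 8.59, 8.84, 8.60 and 8.72 and fell (log2 difference -1.34 ± 0.31, adjusted p = 0.00508), and ptgdsb.2 fell (log2 difference -1.39 ± 0.41, adjusted p = 0.046), a call lost without any 1 array other than dnfgfr1 replicate 1 (0.0546 to 0.199) and with a pseudocount of 64 or no filter (0.0739 and 0.071). lrrc8aa, a subunit of volume-regulated anion channels, fell (log2 difference -1.26 ± 0.24, adjusted p = 0.000736), and so did pttg1ipb, which binds securin (-1.53 ± 0.41, adjusted p = 0.0232; 0.0595 to 0.0697 without dnfgfr1 replicate 2 or 3 or wild-type replicate 2 or 3). The other pttg1ipb probe set at -0.61 did not pass (adjusted p = 0.248). The remaining falls among the 15 largest were rbbp8l (-1.32), pde12, which trims mitochondrial RNA tails (-1.25), s100a1, a calcium-binding protein (-1.17), and cd28, a co-stimulatory receptor of T cells (-1.14). The cd28 call was lost without dnfgfr1 replicate 1 or 3 or wild-type replicate 3 or 4 (0.0542 to 0.103) and with a pseudocount of 64 (0.0605).

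At 1 h 346 probe sets were called (3.42%). Of the 167 rises 60 were called in the same direction there, where 184 probe sets (1.82%) were higher, and of the 137 falls 34 were, where 162 (1.6%) were lower. The times share no array. In sign alone 145 rises and 121 falls were the same at 1 h, beside 60.1% of all tested probe sets. The rises called at both times had a median of 1.06 at 30 min and 1.11 at 1 h, and the falls -0.75 and -0.73. Those not called at 1 h, 106 rises and 101 falls, had medians of 0.31 and -0.28 there.

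**Figure D4:**
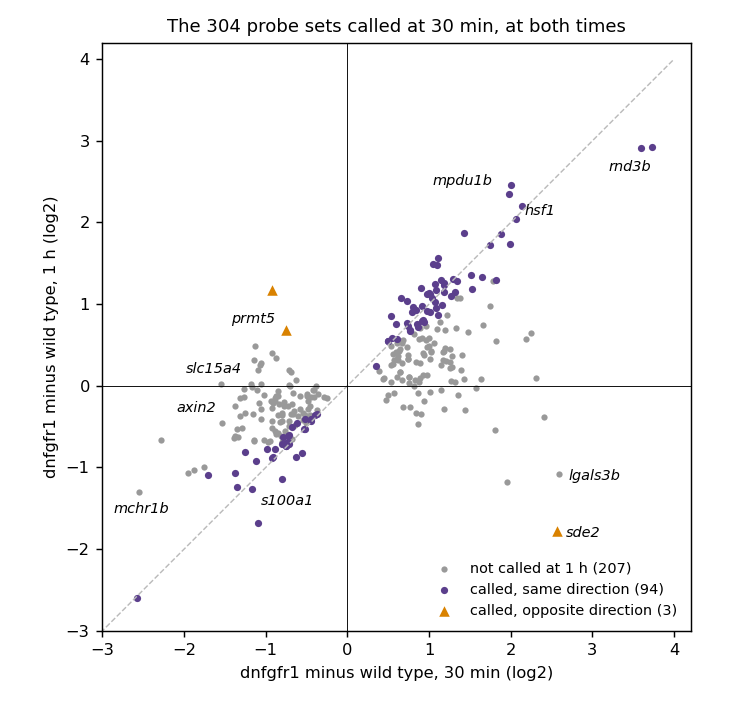
Log2 difference at 1 h (vertical axis) against that at 30 min (horizontal axis) for the 304 probe sets called at 30 min. Marks separate those called at 1 h in the same direction, those called in the opposite direction and those not called. hsf1 lies on the diagonal near 2 log2 units at both times, and sde2 and lgals3b lie far below it.

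Rises called at both times included hsf1, rnd3b, mpdu1b, glud1a and prdx1. At 1 h glud1a and prdx1 stood at 1.19 and 1.33 (adjusted p = 2.01e-05 and 0.00236), mpdu1b stood at 2.46 (adjusted p = 1.08e-08) and rnd3b at 2.91 (adjusted p = 0.00297). six3a, a homeobox gene of the forebrain and eye field, rose by 1.29 at 30 min and 1.31 at 1 h, fam117ab by 1.42 and 1.87, and gas1b, which modulates Hedgehog signalling at the membrane, by 1.34 and 1.28. Falls called at both times included lrrc8aa at -0.81 and s100a1 at -1.26. They also took in aimp1a, a scaffold of the aminoacyl-tRNA synthetase complex (-0.71 at 30 min and -0.60 at 1 h), and ddx21, a nucleolar helicase of ribosome production (-0.56 and -0.83). The call of six3a at 30 min was lost with a pseudocount of 1 (adjusted p = 0.0993) and that of s100a1 with a pseudocount of 64 (0.0725). That of aimp1a was lost with the compared groups alone (0.0543). The ddx21 call at 30 min was lost without dnfgfr1 replicate 1 or wild-type replicate 4 (0.0587 to 0.0848). ifi30a, a lysosomal thiol reductase, was -0.63 and -0.87, a call lost at 30 min without dnfgfr1 replicate 2 (adjusted p = 0.054). abhd16a, a phosphatidylserine lipase, was -0.45 and -0.41, a call lost at 30 min without dnfgfr1 replicate 1 or 4 or wild-type replicate 2 or 4 (adjusted p of 0.0501 to 0.125) and with the compared groups alone (0.0856).

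A test of the difference between times called 38 probe sets (0.375%), 19 in each direction. They held 28 genes with an informative symbol at their brightest probe set, and the 14 named here by rule fell into 2 kinds. In sde2, slc15a4, lgals3b, rnf19a, qars1 and prmt5 the genotypes differed at 30 min and not in the same way at 1 h. sde2, known from human cells for its part in replication stress and splicing, was at 9.30, 9.03, 9.28 and 8.53 in dnfgfr1 and 6.33, 6.49, 6.31 and 6.74 in wild-type arrays at 30 min, a rise of 5.93-fold (2.57 ± 0.41, adjusted p = 3.23e-05). At 1 h it was at 7.60, 6.07, 9.35 and 8.64 in dnfgfr1 and 9.82, 9.64, 9.31 and 10.03 in wild-type arrays and was lower (log2 difference -1.78, adjusted p = 0.00509). The wild-type mean at 30 min of 6.47 was below all 16 other groups (7.67 to 9.70). A further probe set of sde2 differed by -0.37 at 30 min and did not pass (adjusted p = 0.473), so the rise rests on 1 of 2 probe sets.

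For slc15a4 the wild-type mean at 30 min, 6.66, was above all 16 other groups (4.53 to 5.65), and at 1 h it was at 5.32, 5.24, 4.98 and 5.01 in dnfgfr1 and 5.15, 5.08, 4.87 and 5.35 in wild-type arrays, a difference of 0.03. The move was 1.57 ± 0.28 (adjusted p = 0.00122; 0.11 with a smaller pseudocount of 1). qars1, glutaminyl-tRNA synthetase, was at 8.56, 8.77, 8.48 and 8.62 in dnfgfr1 and 9.60, 9.69, 9.80 and 9.70 in wild-type arrays at 30 min, fell (log2 difference -1.09 ± 0.20, adjusted p = 0.000294) and moved by 1.29 ± 0.28 between times (adjusted p = 0.0118; 0.0727 without dnfgfr1 replicate 2 of 1 h and 0.0622 with the 4 groups alone). The 2 other qars1 probe sets, at -0.13 and -0.25, did not pass (adjusted p = 0.787 and 0.74). prmt5, an arginine methyltransferase, was -0.76 at 30 min (adjusted p = 0.0254) and 0.68 at 1 h (adjusted p = 0.0485), and its call at 30 min was lost without dnfgfr1 replicate 1, 3 or 4 or wild-type replicate 3 (0.0626 to 0.106). lgals3b was -1.08 at 1 h without passing (adjusted p = 0.26), a move of -3.68 ± 0.68 (adjusted p = 0.00176). For rnf19a the move was -2.21 ± 0.55 (adjusted p = 0.0499), a call lost in 19 of 26 alternatives, among them leaving out any 1 array other than dnfgfr1 replicates 1, 3 and 4 and wild-type replicate 3 of 1 h (0.0557 to 0.187) and the 4 groups alone (0.315).

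Many calls at 30 min were not made again against the wild type of 1 h. That comparison joins a difference in time after heat shock to the difference in genotype, so they cannot be told apart in it. When dnfgfr1 tissue of 30 min was set against the wild-type arrays of 1 h, a comparison added after the data were seen, 28 of the 46 named calls were made again in the same direction and 18 were not. Differences that had turned in sign or come near 0 were those of sde2 (-0.66), slc15a4 (0.01), qars1 (0.20), prmt5 (0.44), lgals3b (0.06), kdelr2a (0.15) and pttg1ipb (-0.24). Smaller differences that did not pass were those of rnf19a (0.75, adjusted p = 0.259), cdk5 (0.72, 0.207), lgals9l3 (0.35, 0.656), col1a1a (0.96, 0.227), galm (0.88, 0.171), epha4a (0.45, 0.309), ptgdsb.1 (-0.73, 0.132), sesn3 (1.42, 0.0559), mmp2 (0.78, 0.0668), mchr1b (-1.98, 0.0908) and ddx21 (-0.42, 0.0591). Against that control fgf8a, myca and tbxta passed, at -2.20, -0.88 and -1.24 (adjusted p = 0.00581, 0.0171 and 0.0423).

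The second kind was not called at 30 min and was called at 1 h, and besides spry4, dusp6, ier2a, grb2b and mespaa it held gstk1, dchs1b and psmb5. gstk1, a glutathione transferase, was 0.48 at 30 min and -1.22 at 1 h, a move of -1.71 ± 0.32 (adjusted p = 0.00176). dchs1b, a large cadherin of planar polarity, was -0.28 and 1.25, a move of 1.54 ± 0.32 (adjusted p = 0.00594; 0.078 with a pseudocount of 1 and 0.0972 with the 4 groups alone). psmb5, a catalytic subunit of the proteasome, was -0.26 and 0.92, a move of 1.18 ± 0.26 (adjusted p = 0.0118; 0.0523 without wild-type replicate 4 of 1 h).

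**Figure D5:**
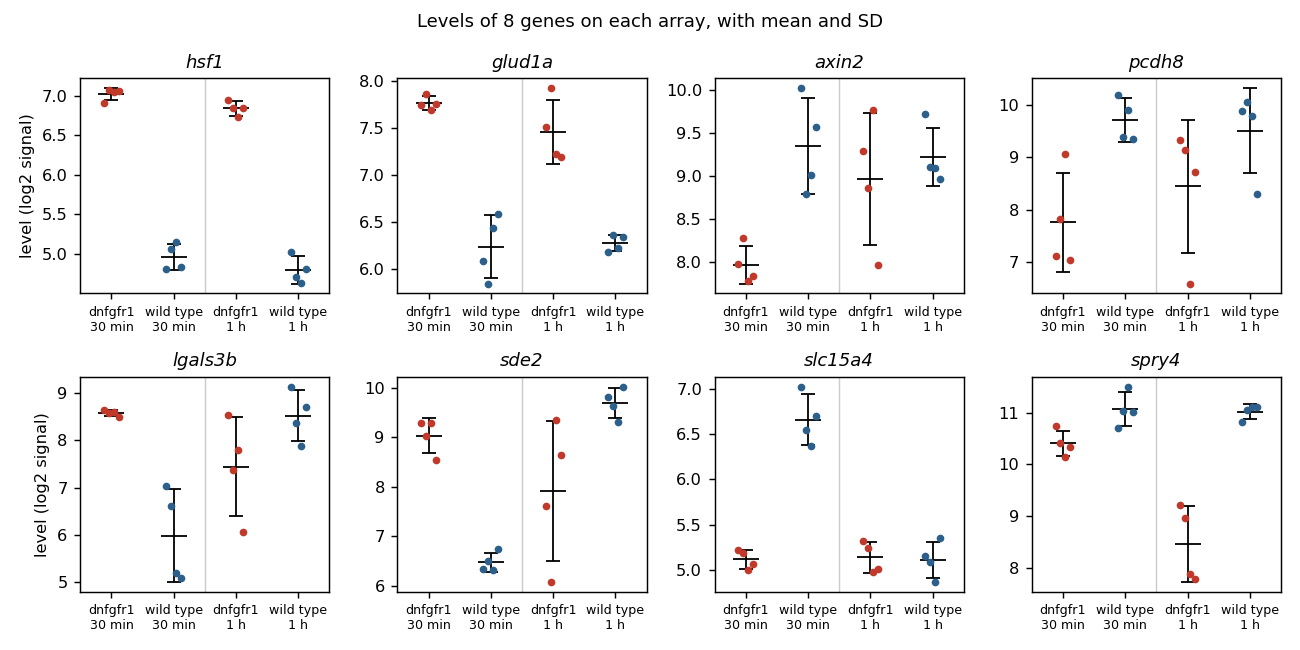
Log2 signal of hsf1, glud1a, axin2, pcdh8, lgals3b, sde2, slc15a4 and spry4 on each array of dnfgfr1 30 min, wild type 30 min, dnfgfr1 1 h and wild type 1 h, with bars of the mean ± SD (n = 4 each). hsf1 is high in both dnfgfr1 groups, slc15a4 is high in the wild-type group of 30 min only among these 4 groups, and spry4 is low in the dnfgfr1 group of 1 h.

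Levels in the other 16 groups of the series placed each genotype. For 69 of the 167 rises and 50 of the 137 falls the dnfgfr1 mean at 30 min was beyond the range of all 16 other group means, and for 24 and 32 the wild-type mean was. Those counts take only the direction of each call. Over all tested probe sets the dnfgfr1 mean was beyond the range, in either direction, at 11.9% and the wild-type mean at 9.92%. Since the calls require the genotypes to differ, such shares describe the calls and test nothing.

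Genes of other tissues that a dissection could carry along gave no call outside the epidermal list. None of 36 neural, 19 notochord and floor plate, 19 muscle, 20 blood and endothelial, 12 pronephric, 11 yolk, gut and hatching gland, 6 germ cell and 6 cilia genes was called by limma, with 0, 6, 0, 2, 3, 2, 0 and 0 at an unadjusted p under 0.05. Neural genes lay above wild type in 10 of 36, with a median of -0.17. Their summed signal was 2880, 2433, 3009 and 2583 in dnfgfr1 arrays against 3339, 4834, 2400 and 1824 in wild-type arrays, with overlap. A smaller set of 6 neural markers summed to 272, 239, 250 and 237 in dnfgfr1 arrays against 457, 1065, 395 and 260 in wild-type arrays. Blood genes lay above wild type in 17 of 20, with a median of 0.53. Their summed signal was 1048, 1320, 1837 and 5404 in dnfgfr1 arrays, highest in replicate 4, against 2678, 416, 3236 and 420 in wild-type arrays. Leaving out any 1 array of this comparison gave 201 to 274 calls. Without dnfgfr1 replicate 4 the number of calls was 201, of which 196 were among the 304. Yolk and gut genes summed to 5886, 5980, 5103 and 4994 against 6651, 6724, 6779 and 6819, lower in every dnfgfr1 array. The part of these unequal amounts in the calls was not tested.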

How the data were processed

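RNA of dissected posterior presomitic mesoderm was hybridised to 1-colour Affymetrix zebrafish arrays. The authors deposited 1 linear signal intensity per probe set and array, computed with MAS5 per the submitters' processing notes, and each array's trimmed mean was 150 in the table. Of 15617 probe sets, 115 controls were left out. 16 was added to each signal, log2 was taken, so that 4 is the floor, and the 72 arrays were quantile normalised, since their medians spanned 0.738. The 10126 probe sets above the array median on at least 3 arrays were tested with limma 3.58.1 (R 4.3.3) as 19 group means with a moderated, trended and robust variance and Benjamini-Hochberg adjustment. The fit was tested on simulated data. Symbols came from the platform annotation (10795 probe sets with 1 symbol, 135 with several, 4572 with none), with 10711 matched by gene identifier to a RefSeq table of assembly GRCz12tu.

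Named by rule were the Fgf receptors and heat shock genes, the 15 largest called rises and 15 largest falls whose arrays did not overlap, the called members of each list, the 12 Fgf genes of smallest p and those called at 1 h, the 8 rises and 8 falls largest at both times, and the 6 called differences between times of smallest p in each direction, all with an informative symbol. Other genes named are fixed list or marker genes. For genes with several probe sets a list used the brightest. Members and gene lists were chosen with earlier results of these data known. The labels give no clutch, day, scan or other batch, and no batch could be examined. The p-values measure the spread between arrays within groups, pooled over the 72 arrays and moderated, not that of the compared groups alone. The number of arrays limits the precision. Same-numbered arrays of the genotypes at 30 min had correlations of deviations of 0.142, -0.162, -0.074 and -0.072, so the replicate numbers did not pair them. Within each dnfgfr1 and wild-type group of 30 min and 1 h, no 2 arrays held the same values. Arrays of different groups were not compared in this way. Alternatives were the deposited scaling, median centring, pseudocounts of 1 and 64, other filters, the compared groups alone, a replicate block, array weights, a plain variance and leaving out each array.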

Additional observations from a re-analysis of the deposited data

Results flagged for a closer look

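Among the 115 control probe sets, which no comparison used, 9 did not overlap between the genotypes at 30 min. Of these, 2 were more than 4-fold higher in dnfgfr1 than in wild-type arrays. One, without a gene name in the tables used here, averaged 7121 ± 1502 in dnfgfr1 and 35.5 ± 11.0 in wild-type arrays (SD, n = 4 each), a ratio of 201. The other, also unnamed, averaged 62.2 ± 9.45 against 6.29 ± 2.9, and at 1 h 28.7 ± 2.08 against 8.89 ± 3.37. In the other direction 1 control was past 4-fold with no overlap, at 1.45 ± 0.27 against 6.16 ± 3.61, and at 1 h it was at 3.43 ± 2.79 against 3.57 ± 1.95. All its signals in these groups were below the 16 added before log2 was taken, near the bottom of the scale. Controls named GAPDH-3 and GAPDH-M were 2.18-fold and 2.25-fold higher in dnfgfr1 arrays at 30 min with no overlap, whereas GAPDH-5, at 1.29-fold, overlapped. At 1 h the ratios of GAPDH-3 and GAPDH-M were 2.81 and 2.14.

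The genotype difference moved between 30 min and 1 h, by a test of the move itself, in lgals3b (-3.68), sde2 (-4.35), rnf19a (-2.21), slc15a4 (1.57), qars1 (1.29), spry4 (-1.91), grb2b (2.80), dusp6 (-1.23), ier2a (-2.48), prmt5 (1.44), dchs1b (1.54), psmb5 (1.18), gstk1 (-1.71) and mespaa (-2.14), all on the log2 scale. A positive value means that dnfgfr1 tissue stood higher relative to wild type at 1 h than at 30 min.

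Single arrays stood far from the other 3 of their group in 15 of the 156 groups of 4 examined, where chance gives about 5 percent. In dnfgfr1 arrays at 30 min these were hsf1 in replicate 1 at 6.91, kdelr2a and prdx1 in replicate 3 at 8.33 and 8.47, mchr1b and fgf3 in replicate 2 at 4.22 and 4.59, and mmp2, fam117ab, her7 and msgn1 in replicate 4 at 6.87, 5.99, 9.82 and 12.34. In wild-type arrays they were lgals9l3, mespaa and her1 in replicate 1 at 4.59, 9.23 and 7.52, six3a in replicate 2 at 4.77, and fgfr4 and grb2b in replicate 4 at 6.95 and 6.28. Some flagged gaps were small, as for hsf1 and msgn1, whose other dnfgfr1 arrays were at 7.05 to 7.07 and 12.53 to 12.54.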

How the results depend on the processing

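At 30 min 304 probe sets were called, against 186 with a stricter filter, under which 123 of the 304 were not tested, 861 with array weights, which held all 304, and 201 to 274 without 1 array, lowest without dnfgfr1 replicate 4. With the wild type of 1 h as control, an alternative added after the data were seen, 870 were called. That comparison differs in time after heat shock as well as in genotype. The other settings run gave 262 to 450. At 1 h the count was 346 in the fit used, 229 with the compared groups alone, 595 with array weights and 233 to 301 without 1 array. For the move between times it was 38, 141 with array weights and 27 to 41 without 1 array. The fit with a replicate block called 317, 139 and 26. The numbers did not pair the arrays, and dnfgfr1 replicate 2 correlated best with wild-type replicate 4.

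Of 46 named genes called at 30 min, 23 kept their call in all alternatives run apart from the other control and none changed sign. Of 14 called for the move, 5 kept their call and none changed sign. With the wild type of 1 h as control the sign turned for sde2 (-0.66), slc15a4 (0.00523), qars1 (0.20), grb2b (0.14), etv5b (-0.10), fgfr2 (-0.14), fgfrl1a (0.10), prmt5 (0.44), psmb5 (0.42), gstk1 (-0.14), mespaa (0.38) and tbx16 (0.0878). Array weights turned fgfr2 (-0.000654) and fgfr4 (-0.0339), a pseudocount of 1 turned fgfr1a (-0.00580) and fgfrl1a (9.40e-05), and median centring turned axin1 (-0.0512). Leaving out 1 array turned some values of fgfr1a (-0.152 to 0.166), fgfr2 (-0.106 to 0.19), fgfr3 (-0.027 to 0.0513), fgfr4 (-0.295 to 0.269), fgfrl1a (-0.173 to 0.0874), axin1 (-0.0811 to 0.114) and tbx6 (-0.139 to 0.302). None of these differences was called in the fit used, apart from sde2, slc15a4, qars1 and prmt5. Why the counts moved was not tested. The number of arrays limits the precision, and the median SE of a difference was 0.20.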
